A study of Homo sapiens with 6 samples.

Results

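The 4 kinases that phosphorylate the alpha subunit of the initiation factor eIF2, the 2 regulatory subunits that direct its dephosphorylation, and 3 proteins that tune the kinases were followed in TE-1 cells with and without a knockdown of EIF3C. The genes were EIF2AK1, EIF2AK2, EIF2AK3, EIF2AK4, PPP1R15A, PPP1R15B, DNAJC3, IMPACT and GCN1. They were listed by name and role, with earlier results of these data known. A probe set was assigned to a gene where the platform annotation gave that symbol and no other, and each gene was represented by its brightest probe set over the 6 arrays. All 9 were on the array, among 18132 genes, and all 9 passed the filter that left out the dimmest 25% of genes. They had 25 probe sets in all, of which 8 were called higher and 11 lower, where 48.2% of all human probe sets were called in either direction. The probe sets that did not represent a gene served as a check.

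TE-1 is a human cell line from an oesophageal squamous cell carcinoma. An Affymetrix array measured transcript levels in 3 samples of cells with a stable EIF3C knockdown and in 3 samples of the parental cells, untreated otherwise as far as the labels say, and both groups were grown in the same serum-containing medium. The knockdown samples came from 1 clone, and neither another clone nor a control construct entered the comparison, so differences between the clone and its parental line cannot be told apart from those due to the knockdown. The labels call the replicates biological without saying whether they were separate cultures, so the p-values measure how these samples vary. Levels are log2 signals, on which a difference of 1 is a 2-fold difference.

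Phosphorylation of eIF2alpha slows the exchange of GDP for GTP on eIF2 by eIF2B, which lowers general translation and favours the translation of a few mRNAs such as that of ATF4. This is the integrated stress response. HRI (EIF2AK1) responds to haem shortage and mitochondrial stress, PKR (EIF2AK2) to double-stranded RNA, PERK (EIF2AK3) to unfolded protein in the endoplasmic reticulum, and GCN2 (EIF2AK4) to uncharged tRNA and stalled ribosomes. GADD34 (PPP1R15A), which is induced by stress, and CReP (PPP1R15B), which is made constitutively, bring protein phosphatase 1 to eIF2alpha and so reverse the mark. An array measures the mRNAs of these proteins, and neither kinase activity nor the phosphorylation of eIF2alpha was measured.

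Short elements that stress-responsive transcription factors are known to bind were searched in the promoters of these genes, because they link a few of the genes to the groups described further on. The RefSeq promoters of GRCh38.p14, which run from 250 bases before to 50 bases after the start site, held entries for 8 of the 9 genes, EIF2AK1 being the one without an entry. Each motif was searched on both strands, and capitals mark the match. The C/EBP-ATF response element (CARE, TGATGNAAN) was present in 3.61% of all promoters and among these genes in that of PPP1R15B. The interferon-stimulated response element (ISRE, GAAANNGAAA) was present in 3.57% of all promoters and among these genes in that of EIF2AK2, across the start site. The endoplasmic reticulum stress element (ERSE, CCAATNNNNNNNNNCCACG) was present in 0.0769% of all promoters, and these letters were in none of the 8 windows. The promoters of PPP1R15B (chr1:204411768-204412067, minus strand) and EIF2AK2 (chr2:37156931-37157230, minus strand) are shown because they hold the matches.
PPP1R15B: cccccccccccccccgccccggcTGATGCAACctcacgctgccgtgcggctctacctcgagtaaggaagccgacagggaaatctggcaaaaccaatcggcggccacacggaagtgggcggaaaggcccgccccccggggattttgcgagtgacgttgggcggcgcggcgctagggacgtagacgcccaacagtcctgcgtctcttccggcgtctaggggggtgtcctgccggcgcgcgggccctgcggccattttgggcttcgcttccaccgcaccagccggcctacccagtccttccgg
EIF2AK2: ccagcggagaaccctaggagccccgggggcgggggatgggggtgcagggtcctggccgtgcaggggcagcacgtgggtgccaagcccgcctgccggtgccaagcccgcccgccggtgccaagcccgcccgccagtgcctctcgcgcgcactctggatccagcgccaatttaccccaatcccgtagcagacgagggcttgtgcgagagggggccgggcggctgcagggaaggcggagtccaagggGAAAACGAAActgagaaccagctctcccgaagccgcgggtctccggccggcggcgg

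The arrays had medians between 6.09 and 6.11 and were used as deposited. The 3 bright probe sets shared by EIF3C and its near-identical copy EIF3CL stood at 21.5% to 22.6% of the control level in knockdown, so the target fell in the samples labelled as knockdown. Of the 85 non-human control probe sets on the array, differences between the groups ran from -0.22 to 0.20, which sets a scale for small changes. General epithelial markers (CDH1, EPCAM, KRT8, KRT18 and KRT19) were bright in both groups, at 11.21 or more. Of the squamous markers, SFN and DSG3 lay above the median of the tested genes in control cells while KRT5, KRT14 and SOX2 were dim, at 5.52 to 6.09 over both groups. Some of these markers differed between the groups: KRT19 fell by 0.55, DSG3 fell by 0.70 and SOX2 fell by 0.25, while KRT8 rose by 0.26, CDH1 by 0.23, EPCAM by 0.21 and KRT18 by 0.12. TP63, KRT6A and KRT17 were not analysed here. The 12 markers of fibroblasts, leukocytes and endothelium all lay below that median, at 2.41 to 6.34. Of these, CDH5, an endothelial cadherin, rose by 0.46, from 5.84 to 6.31, and COL1A1 fell by 0.21, and the part of marker changes in the results was not tested.

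In knockdown cells the transcripts of the 9 genes moved in both directions. PPP1R15B, PPP1R15A, IMPACT and EIF2AK2 rose, DNAJC3, EIF2AK4, GCN1 and EIF2AK1 fell, and EIF2AK3 did not pass the test. The largest changes were a fall of DNAJC3 to 43.7% of the control level and a rise of PPP1R15B to 167%. A gene was called at an adjusted p under 0.05 in limma with Benjamini-Hochberg adjustment over all 13599 genes tested. By this rule 66.5% of all tested genes were called, 32.4% higher and 34.1% lower, so calls in both directions were common over the whole array. Of the 9 genes, 4 were called higher and 4 lower. The groups did not overlap for 4 genes that were higher and 4 that were lower, against 70.3% of all tested genes in either direction. The median log2 difference was -0.09 over the 9 genes and -0.03 over all tested genes.

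**Figure D1:**
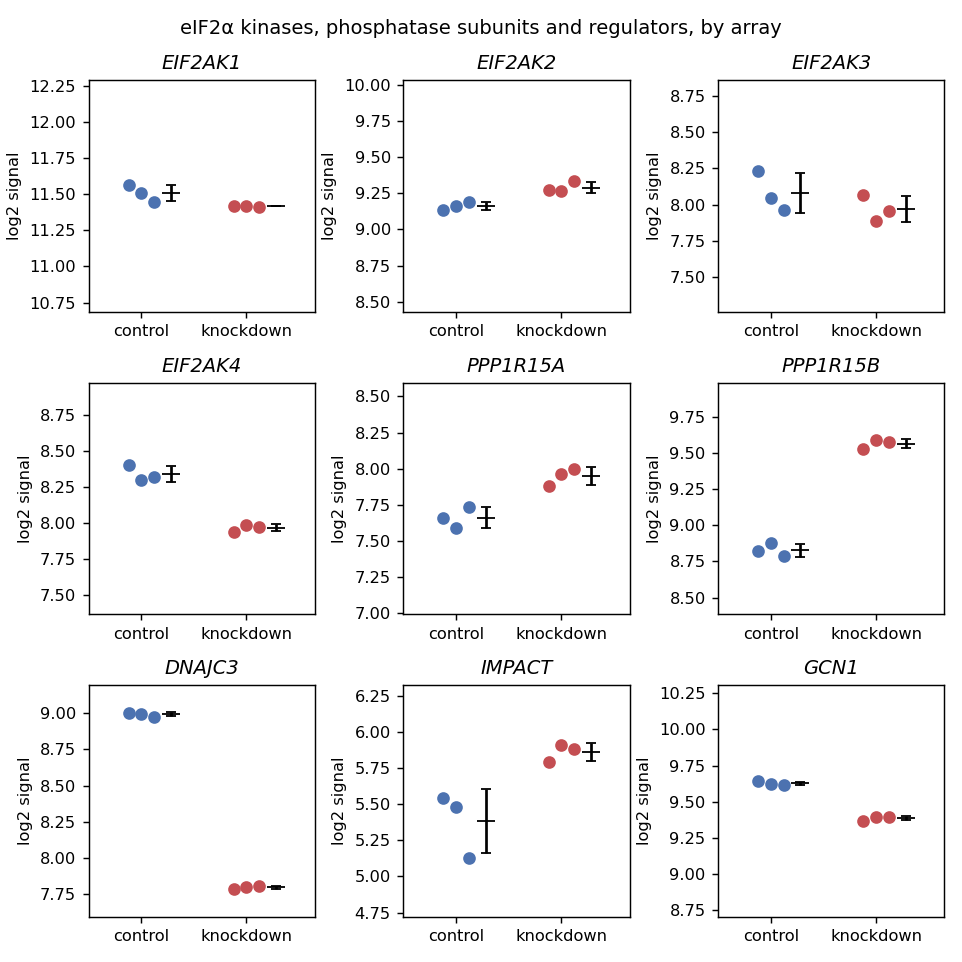
Log2 signal of the brightest probe set of each of the 9 genes in the 3 control arrays (blue) and the 3 EIF3C knockdown arrays (red), with the mean and SD of each group beside the points. Each panel spans the same height in log2 units, centred on the gene's own values. DNAJC3 and PPP1R15B show the widest gaps between the groups, and EIF2AK3 shows groups that overlap.

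Among the kinases, EIF2AK4 had the largest change on the probe sets that represent the genes. EIF2AK4 (GCN2) stood at 8.40, 8.30 and 8.32 in the control arrays and at 7.94, 7.99 and 7.97 in the knockdown arrays. All 3 knockdown values lay below all 3 controls. The mean fell from 8.34 ± 0.06 to 7.97 ± 0.02 (SD, n = 3 each), a log2 difference of -0.37 (SE 0.04, adjusted p = 1.01e-06) that left 77.3% of the control level. A second and dim probe set, with a control mean of 5.27, was also called and fell by 0.35. The brighter of the pair belongs to the class of Affymetrix probe sets in which some probes may bind other transcripts.

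EIF2AK2 (PKR) rose by little. It stood at 9.13, 9.16 and 9.19 in control and at 9.27, 9.26 and 9.33 in knockdown, with no overlap. The mean rose from 9.16 ± 0.03 to 9.29 ± 0.04 (SD, n = 3 each), a difference of 0.13 (SE 0.03, adjusted p = 0.00323). The second probe set rose by 0.43, from 8.43 ± 0.13 to 8.85 ± 0.08, so the size of the rise depended on the probe set, and the mean of both gave 0.28. The brightest probe set is of the class in which some probes may bind other transcripts. The change of the brightest probe set was smaller than the largest differences of the control probe sets. With quantile normalization it was 0.06 and not called (adjusted p = 0.132, with a range of 4.84e-05 to 0.132 over the alternatives).

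EIF2AK1 (HRI) fell slightly on most of its probe sets and strongly on one. The brightest stood at 11.56, 11.51 and 11.45 in control and at 11.42, 11.42 and 11.41 in knockdown. The groups did not overlap, but the lowest control and the highest knockdown value were close. The mean fell from 11.51 ± 0.06 to 11.42 ± 0.0023 (SD, n = 3 each), a difference of -0.09 (SE 0.03, adjusted p = 0.00565), smaller than the largest differences of the control probe sets. This call was lost without the intensity trend in limma (adjusted p = 0.0796, with a range of 7.18e-06 to 0.0796 over the alternatives).

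Of the 8 probe sets of EIF2AK1, 6 were called lower, and the differences of 7 of the 8 lay between -0.17 and -0.09. The remaining one stood at 7.85, 7.77 and 7.67 in control and at 6.44, 6.43 and 6.47 in knockdown. It fell by 1.32 (SE 0.06, adjusted p = 8.46e-11 in a fit over all human probe sets), to 40.2% of the control level. Within each array, its distance below the brightest probe set was 3.72 to 3.78 in control and 4.94 to 4.99 in knockdown. It was singled out because its change lay farthest from that of the brightest, so this is a description with no test. With the mean of all its probe sets, EIF2AK1 fell by 0.27. The brightest probe set and most of the others with small falls are of classes in which probes may bind other transcripts. The probe set that fell by 1.32 is not of these classes. Which transcripts each probe set binds was not examined.

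EIF2AK3 (PERK) was the kinase that did not pass. It stood at 8.23, 8.05 and 7.97 in control and at 8.06, 7.89 and 7.96 in knockdown, and the groups overlapped. The difference was -0.11 (95% confidence interval -0.25 to 0.02, adjusted p = 0.13). None of its 3 probe sets was called, with differences of -0.14 to -0.08. Without control replicate 3 it was called lower, at -0.17 (adjusted p = 0.0189, with a range of 0.0189 to 0.603 over the alternatives), and without control replicate 1 the difference was -0.04. With a block on the replicate number in limma it was also called lower (adjusted p = 0.0393).

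**Figure D2:**
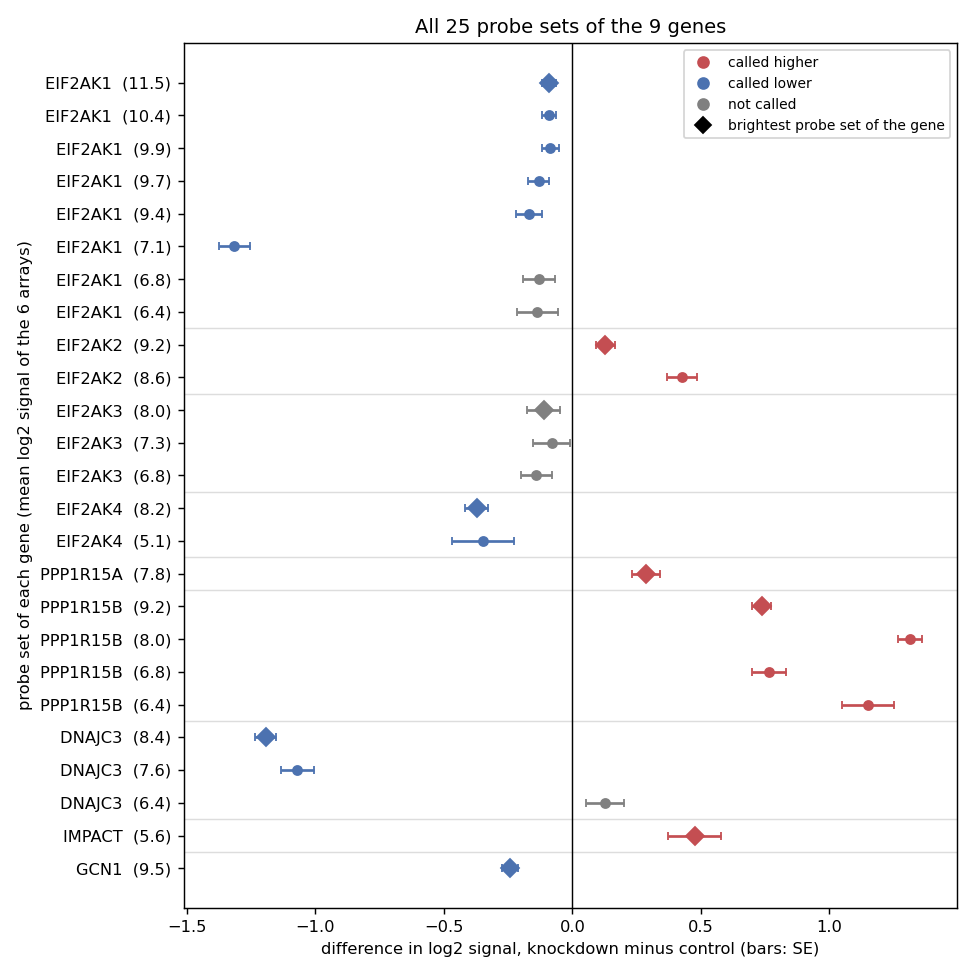
Difference in log2 signal, knockdown minus control, for all 25 probe sets of the 9 genes, with the mean log2 signal of the 6 arrays in brackets. Bars are SE, colours give the call in the fit over all human probe sets, and diamonds mark the brightest probe set of a gene. All 4 probe sets of PPP1R15B lie to the right of 0, 1 probe set of EIF2AK1 lies far to the left of its other probe sets, and 1 of DNAJC3 lies on the other side of 0.

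Both regulatory subunits of the eIF2alpha phosphatases rose, PPP1R15B by 0.74 and PPP1R15A by 0.29. PPP1R15B (CReP) stood at 8.82, 8.88 and 8.78 in control and at 9.53, 9.59 and 9.58 in knockdown. The groups were far apart. The mean rose from 8.83 ± 0.05 to 9.56 ± 0.03 (SD, n = 3 each), a difference of 0.74 (SE 0.04, adjusted p = 9.77e-12) or 1.67-fold. All 4 of its probe sets were called higher, by 0.74, 0.77, 1.15 and 1.32. The probe set with a difference of 1.32 rose from 7.37 ± 0.04 to 8.68 ± 0.05, a 2.49-fold difference, so the size of the rise varied with the probe set while its direction did not. The mean of the 4 probe sets rose by 0.99.

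PPP1R15A (GADD34) had 1 probe set, of the class in which some probes may bind other transcripts. It stood at 7.66, 7.59 and 7.73 in control and at 7.88, 7.97 and 8.00 in knockdown. All 3 knockdown values were above all 3 controls. The mean rose from 7.66 ± 0.07 to 7.95 ± 0.06 (SD, n = 3 each), a difference of 0.29 (SE 0.05, adjusted p = 0.000113).

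The regulators of the kinases split by direction. DNAJC3, also called p58IPK, is a co-chaperone of the endoplasmic reticulum that was first described as an inhibitor of PKR and also restrains PERK. It stood at 9.003, 8.996 and 8.976 in control and at 7.78, 7.80 and 7.81 in knockdown. The mean fell from 8.99 ± 0.01 to 7.80 ± 0.01 (SD, n = 3 each), a difference of -1.19 (SE 0.04, adjusted p = 6.71e-14) or 2.29-fold. Among the 9 genes it was the one called and at least 2-fold changed on the brightest probe set, as were 4.82% of all tested genes.

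A second probe set of DNAJC3 fell by 1.07, from 8.11 ± 0.06 to 7.04 ± 0.12. The third, a dim one, stood at 6.32 ± 0.09 and 6.44 ± 0.08 and was not called (difference 0.13, adjusted p = 0.183). Within each array it lay 2.58 to 2.73 below the brightest in control and 1.27 to 1.44 below it in knockdown, again a description of the probe set whose change lay farthest from that of the brightest. The mean of the 3 probe sets fell by 0.71, a smaller change than the rise of 0.99 of PPP1R15B by the same measure.

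GCN1 binds stalled ribosomes and activates GCN2, and IMPACT competes with GCN2 for GCN1 and so restrains it. GCN1 stood at 9.64, 9.63 and 9.62 in control and at 9.37, 9.39 and 9.39 in knockdown, with a tight spread and no overlap. The mean fell from 9.63 ± 0.01 to 9.39 ± 0.01 (SD, n = 3 each), a difference of -0.24 (SE 0.03, adjusted p = 1.79e-06). IMPACT was dim, at 5.54, 5.48 and 5.13 in control and at 5.79, 5.91 and 5.88 in knockdown. Its mean rose from 5.38 ± 0.22 to 5.86 ± 0.06 (SD, n = 3 each), a difference of 0.48 (SE 0.10, adjusted p = 0.000395), and the lowest control value widened the spread of that group. Both genes had 1 probe set.

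The substrate of the kinases and its exchange factor were next compared. Of 9 genes of eIF2, eIF2B and eIF5, 7 rose and 1 fell (median 0.53), beside 32.4% higher and 34.1% lower of all tested genes (median -0.03). EIF2S1, which encodes the phosphorylated alpha subunit itself, rose from 9.61 ± 0.05 to 10.98 ± 0.06 (SD, n = 3 each), a 2.60-fold difference (adjusted p = 2.45e-15), and its 5 probe sets were called higher. EIF2S2, the beta subunit, fell by 0.23 and on a further probe set fell by 0.93. EIF2S3, the gamma subunit, stood at 10.20 ± 0.05 in control and 10.17 ± 0.02 in knockdown and was not called (adjusted p = 0.504), although 2 of its 4 probe sets were called lower, with differences down to -0.24. All 5 subunits of eIF2B rose: EIF2B1 by 1.598, EIF2B2 by 0.57, EIF2B4 by 0.53, EIF2B3 by 0.29 and EIF2B5 by 0.15. The change of EIF2B5 was smaller than the largest differences of the control probe sets. EIF5, the GTPase-activating protein of eIF2, rose by 1.30, although 1 of its 7 probe sets stood at -0.06.

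Among the partners of the phosphatase subunits, 4 of 5 rose and 1 fell, beside the same 32.4% and 34.1% (median 0.22, or 0.09 with the mean of each gene's probe sets). The catalytic subunits of protein phosphatase 1 went apart. PPP1CA fell from 11.05 ± 0.02 to 10.46 ± 0.04 (SD, n = 3 each), a difference of -0.60 (adjusted p = 4.26e-12), and PPP1CC rose from 10.90 ± 0.02 to 11.54 ± 0.02, a difference of 0.64 (adjusted p = 1.89e-13). PPP1CB rose by 0.09 on its brightest probe set, and a further probe set was called lower, at -0.29. That rise was smaller than the largest differences of the control probe sets. The adaptor gene NCK1 rose by 0.31. ACTB, whose monomeric product binds the PPP1R15 proteins, rose by 0.22 on its brightest probe set, and 1 of its 3 probe sets was called.

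Of 10 tested regulators of HRI, PKR and GCN2, 4 rose and 5 fell (median -0.066, or -0.031 with the mean of each gene's probe sets). Beside this, 32.4% of all tested genes were called higher and 34.1% lower. HSP90AA1 and HSP90AB1, chaperones that HRI needs to mature, rose by 0.72 and 0.70. OMA1, the mitochondrial protease that releases DELE1 to activate HRI, fell by 0.54, and ADAR, an RNA-editing enzyme that limits the activation of PKR, fell by 0.39 with its 6 probe sets called lower. Of 11 partners of GCN1 and sensors of stalled ribosomes, 7 rose and 2 fell (median 0.27), beside 32.4% higher and 34.1% lower over the array. RNF25, a ubiquitin ligase that acts with GCN1, rose by 1.17, ZC3H15 by 0.54, the GTPase gene DRG1 by 0.40 and the helicase gene ASCC3 by 0.39. Of the 4 probe sets of ASCC3, 3 were called higher and 1 stood at -0.007. Falls in this list numbered 1 when control replicate 1, control replicate 2 or any of knockdown replicates 1, 2 and 3 was left out.

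Target genes of ATF4 are often used as an indirect readout of eIF2alpha phosphorylation, which was not measured. Of 19 genes in the list of ATF4 and its targets, 3 rose and 14 fell (median -0.70), against 32.4% higher and 34.1% lower of all tested genes. ATF4 itself, which is controlled mainly in translation, fell by 0.19, which was smaller than the largest differences of the control probe sets. It had 1 probe set, of the class in which some probes may bind other transcripts. PSAT1 fell by 2.23, ASNS fell by 1.70, DDIT4 fell by 1.503 and PHGDH fell by 1.41. PPP1R15A, which is known as a target of this pathway, was not in the list and rose.

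The CARE match of PPP1R15B was also found in the promoters of 5 of 17 genes of that list. The matches are printed with 10 bases on each side, or up to the end of the window, on the strand that carries the motif, for a comparison of letters with the direction of change. PPP1R15B, CHAC1 and CEBPG hold the same 9 letters, as does HERPUD1, a gene of the endoplasmic reticulum list described further on.
PPP1R15B (chr1:204412026-204412054, minus strand): ccgccccggcTGATGCAACctcacgctgc
CHAC1 (chr15:40953251-40953279, minus strand): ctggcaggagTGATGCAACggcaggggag
CEBPG (chr19:33374061-33374089, plus strand): gcgcggcgtcTGATGCAACctgccggcaa
ASNS (chr7:97872458-97872486, minus strand): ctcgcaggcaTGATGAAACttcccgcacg
ATF3 (chr1:212565206-212565234, plus strand): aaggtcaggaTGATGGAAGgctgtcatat
SLC3A2 (chr11:62881725-62881748, minus strand): ggagcTGATGTAAGgagtcctgca

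Genes with this match did not move one way. PPP1R15B rose by 0.74, ATF3 by 0.69 and SLC3A2 by 0.24, while ASNS fell by 1.70, CEBPG fell by 1.01 and CHAC1 fell by 0.86. The 7 probe sets of ATF3 had differences of 0.07 to 0.69, and 5 of them were called higher. A further probe set of CEBPG stood at -0.01 and was not called. Genes of the lists described further on held this match too. HERPUD1 fell by 0.31 with its 4 probe sets called lower, and IFIT3 fell by 0.69. MX1 was not called, and TLR3 did not pass the filter. A match describes the letters only, and binding was not measured.

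Genes of the endoplasmic reticulum around PERK and DNAJC3 were counted next. Of 18 tested, 4 rose and 12 fell (median -0.27), beside 32.4% and 34.1% of all tested genes. The genes of the other stress sensors of this compartment, ERN1 (difference 0.17, adjusted p = 0.12) and ATF6 (0.09, adjusted p = 0.0745), were not called. SDF2L1 fell by 0.60, the disulfide isomerase gene PDIA4 by 0.46 and the transcription factor gene XBP1 by 0.46, and the co-chaperone gene DNAJB9 rose by 0.69. Of the 3 probe sets of DNAJB9, 2 were called higher and 1 stood at -0.04. HSPA5, or BiP, which holds PERK inactive, fell by 0.36 on its brightest probe set. Its 6 probe sets were called lower, with differences of -1.42 to -0.36. The ERSE was found in the promoters of 6 of 18 genes of this list.

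EIF2AK2 is itself known to be induced by interferon, so it was set beside other such genes. Of 13 tested interferon-stimulated and double-stranded RNA genes, 2 rose and 7 fell, in all near the 66.5% of tested genes called in either direction (median -0.19, or -0.42 with the dimmest 50% of genes left out). RIGI rose by 0.90, while IFI6 fell by 0.88, ISG15 by 0.72 and IFIT3 by 0.69. A further probe set of RIGI stood at 0.04 and was not called. The ISRE was found in the promoters of 8 of 13 genes of this list that had an entry. Matches of EIF2AK2 and of the called genes of this list are printed with 10 bases on each side. They are given on the strand that carries the motif, nearest to the start site where there were several.
EIF2AK2 (chr2:37156967-37156996, minus strand): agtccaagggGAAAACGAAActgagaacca
IFIH1 (chr2:162318686-162318715, minus strand): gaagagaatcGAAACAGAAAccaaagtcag
IFIT1 (chr10:89392510-89392539, minus strand): gaaacctaggGAAACCGAAAggggaaagtg
IFIT3 (chr10:89332468-89332497, minus strand): aaggggaaagGAAAGTGAAActgatggaac
ISG15 (chr1:1013380-1013409, plus strand): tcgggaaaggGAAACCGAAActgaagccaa
IFI6 (chr1:27672266-27672295, minus strand): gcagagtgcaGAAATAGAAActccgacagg

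Here too, genes with a match went both ways. EIF2AK2 rose by 0.13 and IFIH1, another sensor of double-stranded RNA, by 0.27, while IFI6 fell by 0.88, ISG15 by 0.72, IFIT3 by 0.69 and IFIT1 by 0.64. MX1, which also holds a match, was not called (difference -0.07, adjusted p = 0.395). ATF5, of the list of ATF4 and its targets, held this match as well and rose by 0.27, with 2 of its 4 probe sets called higher. The rises of EIF2AK2 and IFIH1 have limits. A further probe set of IFIH1 stood at -0.00011 and was not called, and EIF2AK2 was not called with quantile normalization. OAS3 and TLR3, which hold a match too, did not pass the filter, and their differences were -0.25 and -1.20.

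**Figure D3:**
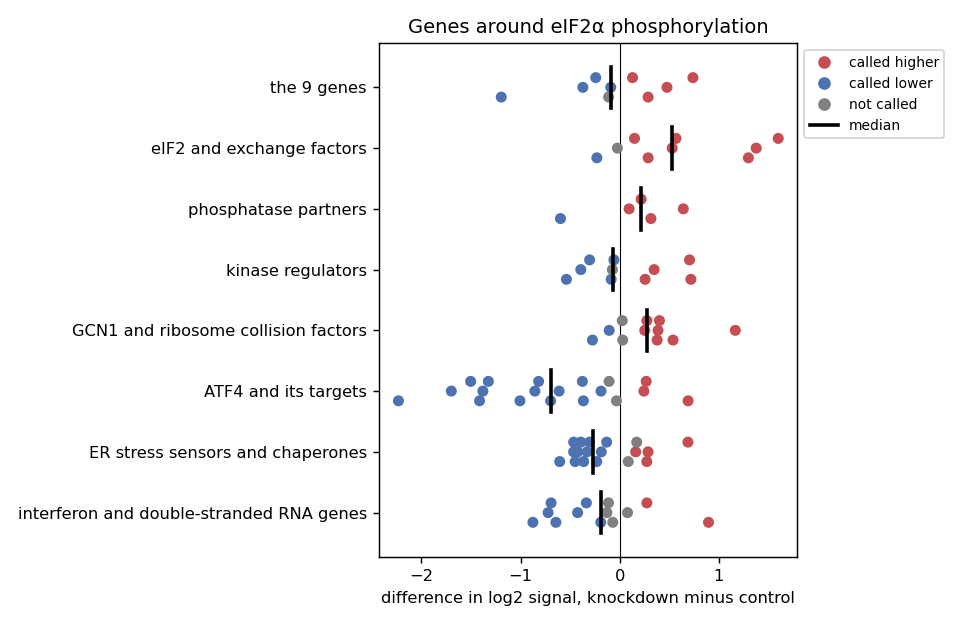
Difference in log2 signal, knockdown minus control, for the 9 genes and for the tested genes of 7 lists around eIF2alpha phosphorylation. Each point is a gene, colours give the call and black bars the median of a list. The median of eIF2 and its exchange factors lies at 0.53 and that of ATF4 and its targets at -0.70.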

How the data were processed

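Total RNA of 6 TE-1 samples was hybridised to an Affymetrix array, per the labels' protocols. The values were log2 signals deposited by the authors, 1 per probe set. MAS5 is named without a version, per the submitters' processing notes, and its settings and the other steps are not stated. The log2 scale was read from the values. Arrays were taken as already scaled, so a change shared by all genes cannot be measured, and neither detection calls nor scan batches were used. The number of arrays limits the precision.

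Of 49293 human probe sets, 44988 carried 1 symbol. Each gene was represented by its brightest probe set, and the dimmest 25% of genes were left out. The groups were compared in limma 3.58.1 under R 4.3.3 (lmFit, eBayes with an intensity trend, group only). Other probe sets came from a fit over all human probe sets. Tested on simulated data with 13599 genes, of which 200 were changed, the method recovered 49.0% of log2 changes of 0.25 and 99.0% of those of 1. In the real arrays 66.5% of tested genes were called, so these shares do not give the recovery there.

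The 9 genes and the 7 lists were chosen with earlier results of these data known. Named were all genes of the lists of eIF2 and of phosphatase partners, and of each other list up to 4 with the largest called change. HSPA5, ATF4, ERN1, ATF6 and the genes with printed motifs were named for their role or match. Alternatives were no filter or one at 50%, other normalizations (quantile, median), averaged or single probe sets, eBayes without trend or robust, array weights, a block on the replicate number, and leaving out each array.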

Additional observations from a re-analysis of the deposited data

How the results depend on the processing

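Of 415 values recomputed under an alternative, 388 kept their direction and side of the threshold, or for counts stayed within 1.5 times, and none of the 9 genes reversed. EIF2AK1 lost its call without the intensity trend (-0.091, adjusted p = 0.0796) and EIF2AK2 with quantile normalization (0.062, adjusted p = 0.132). EIF2AK3 gained one with the replicate block (-0.11, adjusted p = 0.0393) and without control replicate 3, with values of -0.17 to -0.036 when 1 array was left out. The cause was not tested. With the replicate block, 9307 genes were called in place of 9037. Same-numbered arrays deviated together only weakly (correlations of 0.08, 0.13 and 0.23), and control replicate 1 correlated better with knockdown replicate 2, so the arrays were taken to share only a number. When 1 array was left out, falls among partners of GCN1 numbered 1 to 2. Among eIF2 and exchange factors 2 fell with quantile normalization, and 2 with the mean of the probe sets. With that mean, 1 partner of GCN1 fell and 1 interferon gene rose, and 1 interferon gene rose with the lowest 50% left out.

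Counting every probe set on its own, where a gene can count several times, 23773 probe sets, or 48.2% of all human ones, were called. Of the 9 genes' probe sets 8 were higher and 11 lower. The lists had 20 higher and 4 lower for eIF2 and exchange factors, 6 higher and 3 lower for phosphatase partners, 6 higher and 15 lower for kinase regulators, 18 higher and 3 lower for partners of GCN1, 14 higher and 29 lower for ATF4 and its targets, 17 higher and 31 lower for the endoplasmic reticulum, and 3 higher and 14 lower for interferon genes. Without detection calls, folds of dim probe sets such as that of IMPACT are uncertain.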

Other observations

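The profile of DNAJC3 over the 6 arrays, each gene taken relative to its control mean, was closest to those of SLC7A6, SLC35D1 and NFS1 among all tested genes, with root mean square distances of 0.026, 0.029 and 0.029 log2 units. SLC7A6, a subunit of an amino acid transporter, fell from 8.05 ± 0.03 to 6.88 ± 0.04 (SD, n = 3 each). SLC35D1, a nucleotide sugar transporter of the endoplasmic reticulum, fell from 7.91 ± 0.02 to 6.73 ± 0.04, and NFS1, the cysteine desulfurase of iron-sulfur cluster assembly, from 9.34 ± 0.01 to 8.18 ± 0.02. With 2 groups of 3 arrays, the likeness rests mainly on the size of the difference between the groups.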
